A study of Rattus norvegicus with 24 samples.

Results

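The antioxidant defence genes described here are Sod1, Sod2, Cat, Gpx1, Prdx1, Prdx6, Gclc, Gclm and Txnrd1, measured in rat whole brain after repeated anaesthesia. All probe sets whose platform symbol is one of these 9 genes were taken, whatever their values, which gave 20 probe sets of the 8799 in the table, for 9 of its 4737 genes. Total RNA was hybridised to 24 arrays of 1 colour. The halothane 5 and halothane 10 groups had 5 and 10 exposures to 0.8% halothane, and the isoflurane 5 and isoflurane 10 groups had 5 and 10 exposures to 1% isoflurane, with 3 arrays in each group. An exposure lasted 90 min, and the animals had 2 a day with 3 h of recovery between them, so that 5 exposures took 2.5 days and 10 took 5 days. The 12 control arrays came from animals given halothane for only 3 min, ahead of a perfusion with ice-cold saline, so the controls were not free of anaesthetic. The agents were given at different concentrations, and strain, age, sex and the time from the last exposure to collection were not stated by the sources used here. Whether each replicate is its own animal is not in the labels, and the p-values may therefore reflect technical spread alone.

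Cells form superoxide as a by-product of respiration and of several oxidases. Superoxide dismutases turn it into hydrogen peroxide, which catalase, glutathione peroxidases and peroxiredoxins then remove. Glutathione, and thioredoxin kept reduced by the product of Txnrd1, supply the electrons. The first step of glutathione synthesis is carried out by an enzyme with subunits encoded by Gclc and Gclm. The transcription factor Nrf2, encoded by Nfe2l2, raises the transcription of several of these genes in oxidatively stressed cells, Gclm and Txnrd1 among them. The brain uses much oxygen and is rich in oxidisable lipid, and its astrocytes are known as a main source of glutathione precursors for neurons.

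None of the 9 genes was called in any group. Of the 20 probe sets, 19 were above a floor of 16.5 on at least 3 arrays and were tested with limma among 7389 probe sets, with Benjamini-Hochberg adjustment over all of them and a threshold of 0.05. The number of members called was 0 in halothane 5, halothane 10, isoflurane 5, isoflurane 10 and the exposed arrays pooled, each against control, where 0.0135%, 0.0406%, 0%, 0% and 0% of all probe sets were called. At an unadjusted p under 0.05 there were 0 members in halothane 5, 1 in halothane 10, 0 in isoflurane 5 and 3 in isoflurane 10, and 2 with the exposed arrays pooled. Over all probe sets those shares were 3.53%, 7.52%, 2.14%, 9.05% and 8.44%, and the members' own shares in halothane 10, isoflurane 10 and the pooled arrays were 5.26%, 15.8% and 10.5%. The members' median log2 fold change against control was -0.038 in halothane 5, 0.025 in halothane 10, 0.001 in isoflurane 5 and 0.028 in isoflurane 10, beside -0.008, -0.033, 0.006 and -0.003 over all probe sets. The 95% intervals reached from 0.18 to 0.83 to each side of the estimate, so a small difference in these genes was not detectable with this number of arrays.

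**Figure D1:**
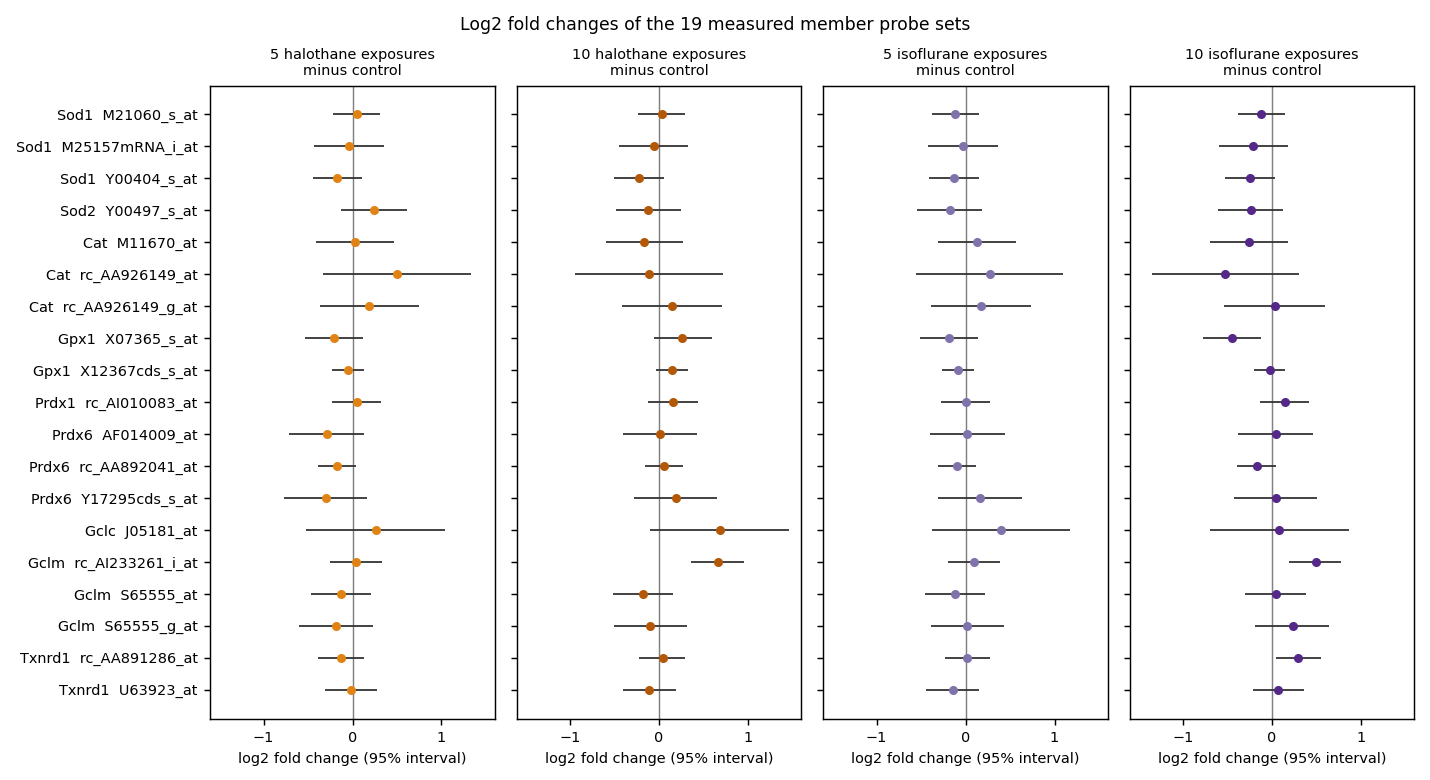
Log2 fold change against control (x axis, floored log2 signal) of the 19 tested member probe sets (y axis), in 1 panel per exposed group; points are limma estimates and lines their 95% intervals. Nearly all lines cross 0; the exceptions are Gclm rc_AI233261_i_at in halothane 10 (0.66) and isoflurane 10 (0.49), Gpx1 X07365_s_at in isoflurane 10 (-0.45) and Txnrd1 rc_AA891286_at in isoflurane 10 (0.29).

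The arrays as a whole resembled each other, with correlations of log2 signal between 0.931 and 0.978, and markers fixed for the brain's cell types were present: 7 of 9 listed astrocyte genes, 7 of 10 neuronal and 6 of 8 myelin genes were above the floor on at least 3 arrays, with none at 0. Bacterial spike-in probe sets split the arrays into 9 with a high and 15 with a low spike-in level. Their mean log2 signal was 9.599 to 10.48 on the high and 7.776 to 9.025 on the low arrays. The gap between the nearest arrays of the levels was 0.57. Replicate 3 of every exposed group and 5 controls (replicates 1, 3, 10, 11 and 12) had the high level. A signal from whole brain cannot tell fewer cells of a type from less RNA per cell.

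**Figure D2:**
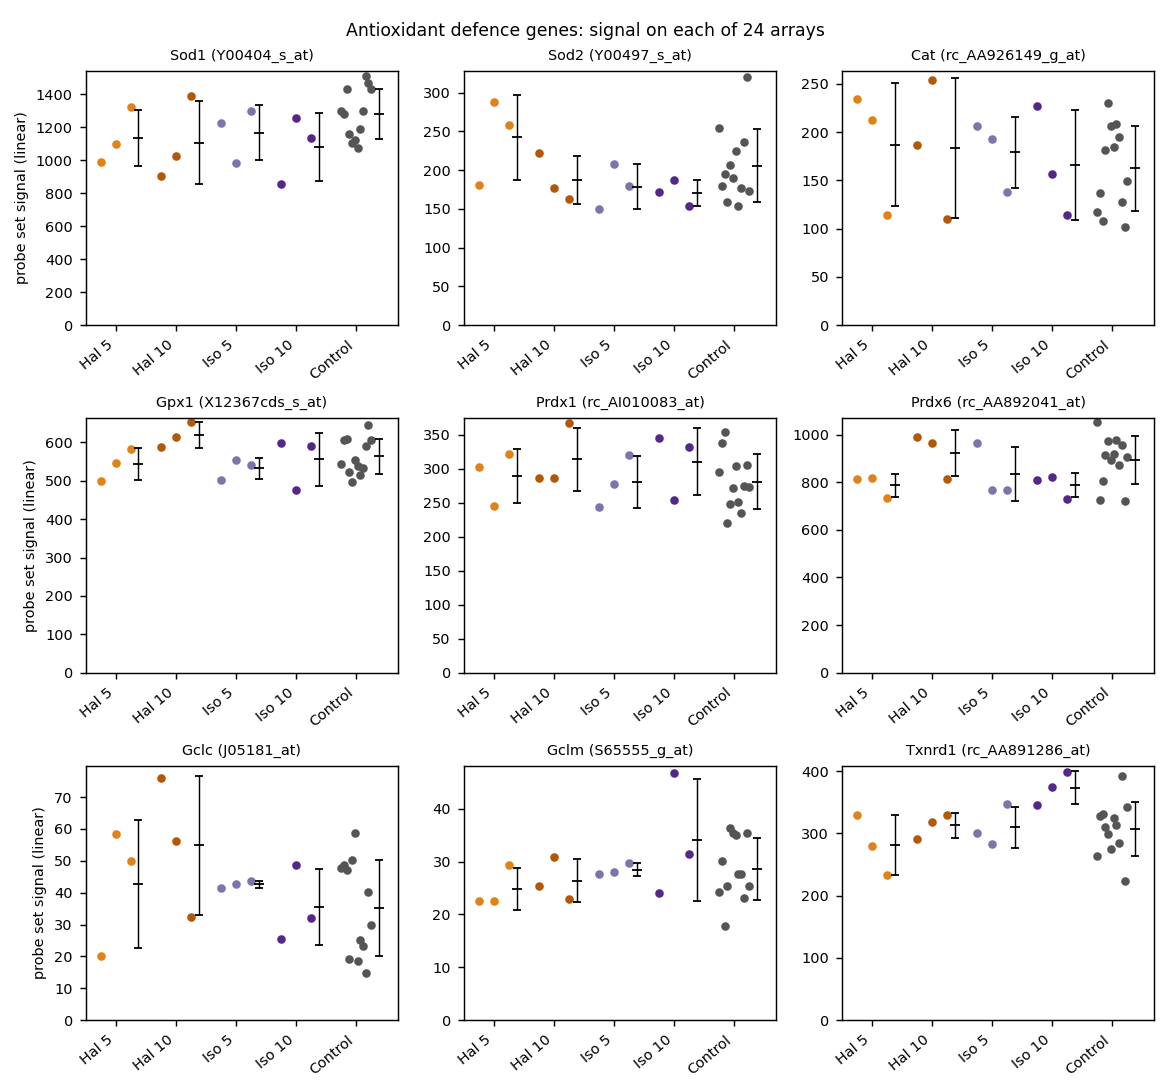
Probe set signal (y axis, linear, as deposited) of the brightest probe set of each of the 9 genes on every array, by group (x axis; Hal, halothane; Iso, isoflurane; 5 or 10, number of exposures); points are arrays, bars the mean ± SD (n = 3 per exposed group, n = 12 for control). In every panel the arrays of each exposed group overlap the range of the controls.

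Sod1 encodes the copper and zinc superoxide dismutase of the cytosol, and its brightest probe set, Y00404_s_at, was on average below control in all 4 exposed groups. Its signal was 989, 1097 and 1322 in halothane 5, 901, 1028 and 1390 in halothane 10, 1224, 982 and 1298 in isoflurane 5, and 854, 1256 and 1133 in isoflurane 10, against 1072 to 1510 (median 1291) in control. The groups overlapped, and 5 of 12 exposed arrays lay below every control. The log2 fold changes were -0.17, -0.23, -0.13 and -0.25 in halothane 5, halothane 10, isoflurane 5 and isoflurane 10, and -0.20 ± 0.09 (SE) for the exposed arrays pooled (adjusted p = 0.528). This probe set moved with the spike-in level: among controls it was 1300.7 to 1510 on the 5 arrays with the high level and 1072 to 1300.6 on the 7 with the low level. The pooled log2 fold change was -0.18 within the low level, -0.15 within the high level and -0.17 with the level as a block. The other Sod1 probe sets, M21060_s_at and M25157mRNA_i_at, had pooled values of -0.04 ± 0.08 and -0.08 ± 0.12.

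Sod2 encodes the manganese superoxide dismutase of the mitochondrial matrix and had 1 probe set, Y00497_s_at. Its signal was 181, 288 and 258 in halothane 5, 222, 177 and 163 in halothane 10, 150.1, 207 and 179 in isoflurane 5, and 172, 187 and 154 in isoflurane 10, against 153 to 319.8 (median 192) in control. No group stood clear of the controls, although 1 isoflurane 5 array was below all of them. Halothane 5 had the highest mean, 242 ± 54.9 (SD, n = 3), and isoflurane 10 the lowest, 171 ± 16.7 (SD, n = 3), against 206 ± 47.3 in control (SD, n = 12). The log2 fold changes were 0.24 ± 0.18 in halothane 5 (adjusted p = 1) and -0.24 ± 0.18 in isoflurane 10 (adjusted p = 0.728).

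Cat encodes catalase, which breaks down hydrogen peroxide in peroxisomes. The signal of rc_AA926149_g_at, its brightest probe set, was 235, 212 and 114 in halothane 5, 187, 254 and 109.9 in halothane 10, 206, 193 and 138 in isoflurane 5, and 227, 157 and 114 in isoflurane 10, against 102 to 231 (median 166) in control. In every exposed group the lowest array was replicate 3, the one with the high spike-in level. The same split ran through the controls, with 102 to 149.6 on the arrays with the high level and 137 to 231 on those with the low level, a log2 difference of -0.66 (high minus low). Against control the log2 fold changes of this probe set were between 0.03 and 0.19 in the 4 groups, each with an SE of 0.27. M11670_at ran from -0.26 to 0.13. The third probe set, rc_AA926149_at, was the most variable member, with a control SD of 0.806 on the log2 scale, larger than that of 97.5% of tested probe sets, and its values of 0.50 ± 0.40 in halothane 5 and -0.53 ± 0.40 in isoflurane 10 lay within that spread.

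**Figure D3:**
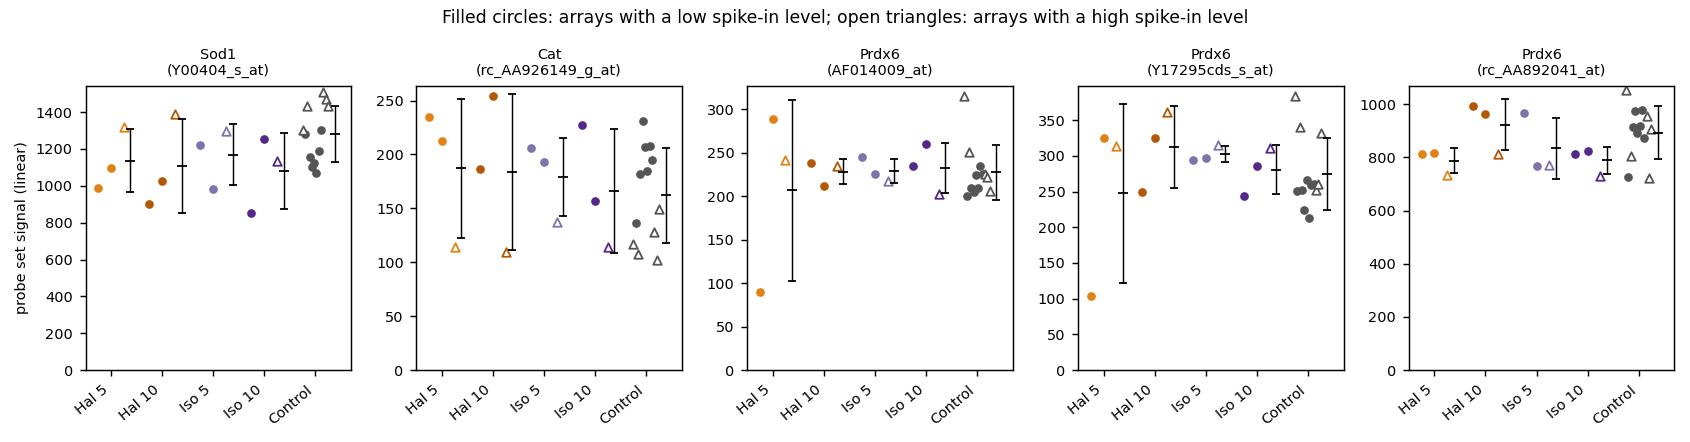
Probe set signal (y axis, linear) of 1 Sod1, 1 Cat and 3 Prdx6 probe sets on each array by group (x axis; Hal, halothane; Iso, isoflurane), with filled circles for arrays of low and open triangles for arrays of high spike-in level; bars are the mean ± SD (n = 3, and n = 12 for control). Triangles lie high in the Sod1 panel's controls and low in the Cat panel, and 1 halothane 5 array is low in 2 of the 3 Prdx6 panels (90.1 and 103).

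Gpx1 encodes the cytosolic glutathione peroxidase, a selenoprotein that reduces hydrogen peroxide with glutathione, and its probe sets differed from each other. With X07365_s_at the signal was 423, 422 and 369 in halothane 5, 661, 503 and 528 in halothane 10, 479.8, 311 and 463 in isoflurane 5, and 473, 296 and 285 in isoflurane 10, against 330.1 to 622 (median 459) in control. The means were 564 ± 84.6 in halothane 10 and 351 ± 106 in isoflurane 10 (SD, n = 3 each), against 472 ± 73.6 in control (SD, n = 12). In isoflurane 10, 2 of 3 arrays were below all controls, and in halothane 10, 1 of 3 was above all of them. The log2 fold changes were -0.45 ± 0.16 in isoflurane 10 (adjusted p = 0.382) and 0.26 ± 0.16 in halothane 10 (adjusted p = 0.712). Without isoflurane 10 replicate 1 the isoflurane value was -0.68 (adjusted p = 0.218). X12367cds_s_at, the brightest of the Gpx1 probe sets and the least variable of all tested members (control SD 0.117, log2), gave -0.02 ± 0.09 in isoflurane 10 and 0.14 ± 0.09 in halothane 10. M21210_i_at read 3.4 to 10.7 on all 24 arrays, below the floor throughout, and was not tested.

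Red blood cells are rich in catalase, Sod1 and Gpx1 protein, and haemoglobin transcripts varied between the groups. The summed signal of the 4 measured blood genes of 9 listed (Hbb, Hbb-b1, Alas2 and Slc4a1) was 445 to 1011 in halothane 5, 437 to 470.2 in halothane 10, 623 to 686 in isoflurane 5 and 388 to 659 in isoflurane 10, against 543 to 996 in control. All 3 halothane 10 arrays were below every control in this sum. So were the lowest and the median array of halothane 5 (445 and 506) and of isoflurane 10 (388 and 410). By the filter, none of the 4 genes could be at 0 throughout. The part of blood in the Sod1, Cat and Gpx1 values was not tested.

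Prdx1 and Prdx6 encode peroxiredoxins; Prdx1 reduces peroxides with thioredoxin, and Prdx6 reduces phospholipid peroxides with glutathione. The Prdx1 probe set rc_AI010083_at read 303, 245 and 321 in halothane 5, 287, 287 and 367 in halothane 10, 243, 278 and 319.8 in isoflurane 5, and 345, 254 and 331 in isoflurane 10, against 220.3 to 354 (median 274) in control. All groups overlapped, and the log2 fold changes ran from 0.00 in isoflurane 5 to 0.16 ± 0.13 in halothane 10 (adjusted p = 0.796).

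Of the 3 Prdx6 probe sets, the brightest, rc_AA892041_at, read 813, 817 and 733 in halothane 5, 992, 965 and 815 in halothane 10, 967, 767 and 769.7 in isoflurane 5, and 812, 822 and 731 in isoflurane 10, against 723 to 1053 (median 910.2) in control. Its log2 fold changes were between -0.17 ± 0.10 (halothane 5 and isoflurane 10) and 0.05 ± 0.10 (halothane 10). A single array set the values of the other probe sets in halothane 5. On halothane 5 replicate 1, AF014009_at read 90.1 and Y17295cds_s_at 103, against 200.2 to 316 and 213 to 384 in control, while the other halothane 5 arrays read 289 and 242 with AF014009_at and 325 and 313 with Y17295cds_s_at. The log2 fold changes in halothane 5 were -0.29 ± 0.20 for AF014009_at and -0.30 ± 0.23 for Y17295cds_s_at with that array, and 0.23 and 0.24 without it. Replicate 1 read 813 with rc_AA892041_at, within the control range.

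Gclc encodes the catalytic subunit of glutamate-cysteine ligase, which makes the first intermediate of glutathione, and Gclm its modifier subunit, which raises the enzyme's affinity for glutamate. Gclc J05181_at read 20, 58.3 and 50 in halothane 5, 76.1, 56.2 and 32.5 in halothane 10, 41.6, 42.6 and 43.7 in isoflurane 5, and 25.6, 48.6 and 32.1 in isoflurane 10, against 14.7 to 58.8 (median 35) in control. Only 1 halothane 10 array lay above all controls. The log2 fold change in halothane 10 was 0.68 ± 0.38 (adjusted p = 0.693). It was 1.06 among low spike-in arrays, -0.06 among high spike-in arrays, 0.40 without halothane 10 replicate 1 and 0.35 with the floor at the 40th percentile. The control SD of Gclc, 0.655 on the log2 scale, was larger than that of 93.2% of tested probe sets.

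The dim Gclm probe set rc_AI233261_i_at was the member with the lowest p in any comparison. Its signal was 21.2, 18.4 and 17.3 in halothane 5, 38.2, 26.3 and 24.1 in halothane 10, 18.8, 21.3 and 19 in isoflurane 5, and 27.5, 27 and 22.9 in isoflurane 10, against 10.1 to 23.5 (median 16.7) in control. All 3 halothane 10 arrays lay above every control, as did 2 of 3 isoflurane 10 arrays, and both 5-exposure groups lay within the control range. In halothane 10 it was the 1 member of the 19 whose arrays did not overlap the controls, and in the other 3 groups there was none. Over all probe sets, the share that lay wholly above the controls was 0.122% in halothane 5, 0.595% in halothane 10, 0.135% in isoflurane 5 and 0.487% in isoflurane 10, and the share wholly below was 0.23%, 0.528%, 0.0947% and 0.433%. The mean was 29.5 ± 7.59 in halothane 10 and 25.8 ± 2.52 in isoflurane 10 (SD, n = 3 each), against 17.6 ± 3.86 in control (SD, n = 12), where 6 of 12 arrays were above the floor. On the floored log2 scale the fold change was 0.66 ± 0.14 in halothane 10 (95% interval 0.36 to 0.95, adjusted p = 0.108) and 0.49 ± 0.14 in isoflurane 10 (0.19 to 0.78, adjusted p = 0.302).

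Whether Gclm was called in halothane 10 depended on the scaling and on array weights. The probe set passed the threshold after quantile normalization (log2 fold change 0.74, adjusted p = 0.0241), after median centring (0.72, adjusted p = 0.0276) and with array weights (0.67, adjusted p = 0.0185). Without halothane 10 replicate 1, its highest array, the value was 0.45 (adjusted p = 0.462). Within the low spike-in level it was 0.72 (adjusted p = 0.189). Within the high level, where halothane 10 has only replicate 3, it was 0.48. Control values of 6 arrays entered the fit at the floor, which narrows the control spread. With a floor at the 10th percentile of the table the value was 0.75 (adjusted p = 0.377).

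The other Gclm probe sets did not share this pattern. S65555_g_at, the brightest, read 22.6, 22.5 and 29.4 in halothane 5, 25.3, 30.9 and 22.9 in halothane 10, 27.6, 28 and 29.8 in isoflurane 5, and 24.1, 46.7 and 31.4 in isoflurane 10, against 17.9 to 36.4 (median 27.7) in control. Its log2 fold change was -0.10 ± 0.20 in halothane 10 and 0.23 ± 0.20 in isoflurane 10, and that of S65555_at was -0.18 ± 0.16 and 0.04 ± 0.16. Across the 24 arrays the correlations between the 3 Gclm probe sets were -0.07, -0.04 and 0.17, as a description over arrays that share their groups. All 3 probe sets read below 50 on every array, near the floor, and the part of the transcript that each one covers was not looked up here.

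**Figure D4:**
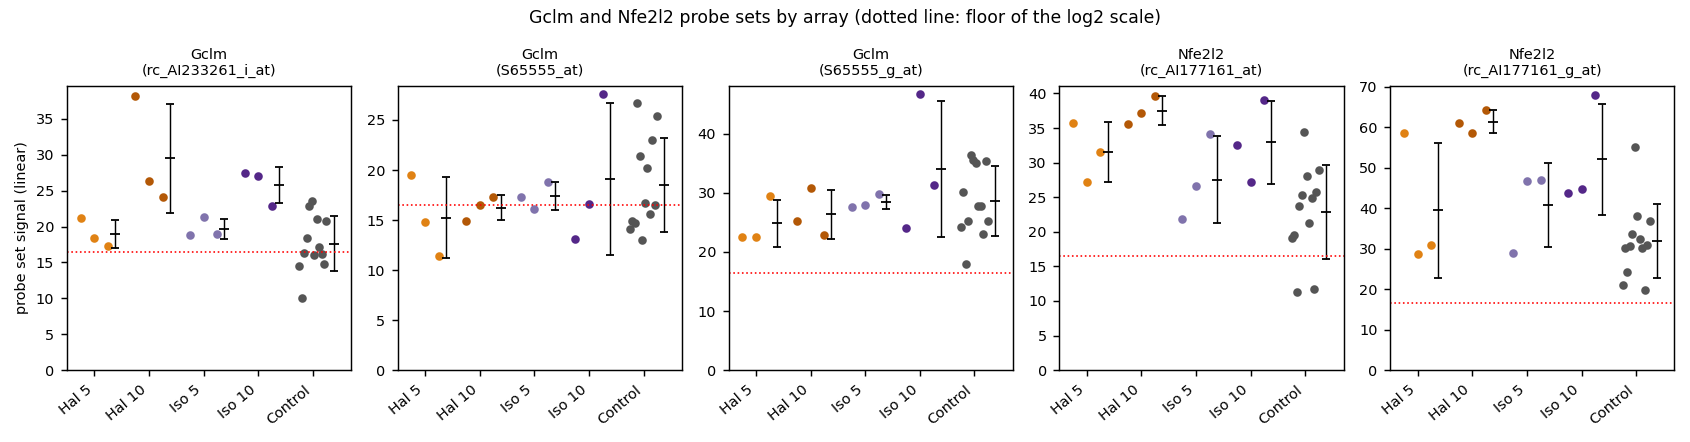
Probe set signal (y axis, linear) of the 3 Gclm probe sets and the 2 Nfe2l2 probe sets on each array by group (x axis; Hal, halothane; Iso, isoflurane); bars are the mean ± SD (n = 3, and n = 12 for control), and the dotted line is the floor of 16.5. The 3 halothane 10 arrays lie above all controls for Gclm rc_AI233261_i_at and for both Nfe2l2 probe sets, and among the controls for Gclm S65555_at and S65555_g_at.

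Nfe2l2, which encodes Nrf2, a known activator of Gclm, had the lowest p of the 14 measured genes of the Nrf2 list in halothane 10. The list as a whole had a median log2 fold change of 0.03 there, with 7 of 14 genes above 0, beside -0.03 over all probe sets, and 0 were called. With rc_AI177161_g_at its signal was 58.7, 28.8 and 31 in halothane 5, 61.1, 58.7 and 64.3 in halothane 10, 28.9, 46.8 and 46.9 in isoflurane 5, and 43.7, 44.7 and 67.9 in isoflurane 10, against 19.9 to 55.2 in control. With rc_AI177161_at its signal was 35.8, 27.2 and 31.6 in halothane 5 and 35.6, 37.2 and 39.7 in halothane 10. In isoflurane 5 it was 21.8, 26.6 and 34.2, and in isoflurane 10 32.5, 27.2 and 39.1, against 11.3 to 34.4 in control. Both probe sets lay above every control on all 3 halothane 10 arrays, on halothane 5 replicate 1 and on isoflurane 10 replicate 3. The log2 fold changes in halothane 10 were 0.99 ± 0.25 with rc_AI177161_g_at (adjusted p = 0.224) and 0.70 ± 0.19 with rc_AI177161_at (adjusted p = 0.272), and in isoflurane 10 they were 0.73 ± 0.25 (adjusted p = 0.382) and 0.50 ± 0.19 (adjusted p = 0.432). Among low spike-in arrays the halothane 10 value of rc_AI177161_g_at was 0.78 (adjusted p = 0.395). With a floor at the 40th percentile rc_AI177161_g_at passed the threshold in halothane 10 (0.66, adjusted p = 0.0443). That floor, 37.7, lies above most control values of this probe set, so most controls entered that fit at the same value. This narrows the control spread.

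Nrf2 binds antioxidant response elements, whose core is written TGACNNNGC. This core was sought on both strands of the RefSeq promoter windows (rat build GRCr8, 250 bases before to 50 after each start). Windows were found for 8 of the 9 genes, 9 windows in all; Prdx6 had no match. The core was in 4 of the 9 windows, beside 12.1% of all 33469 windows. The 4 matches are shown because they mark the members with this motif close to their start. Each is printed 5′ to 3′ on the gene's strand with 8 bases to each side, and capitals mark the core, which runs on the opposite strand in all 4:
Gclm: cggtttctGCTTAGTCAttgtcttc
Prdx1: gggaaagcGCTGAGTCAtaccccgc
Txnrd1: ggatttttGCTTTGTCAttctgaca
Sod2: cgctgccgGCAGGGTCAgcgcctag
The Gclm window with its flanks is chr2:213031955-213031979 (plus strand), and its core lies 172 bases before the start site. That of Prdx1 is chr5:135383763-135383787 (plus strand), 135 bases before the start, and also overlaps a match to the AP-1 motif TGANTCA. That of Txnrd1 is chr7:22755966-22755990 (minus strand), 78 bases before the start of 1 of its 2 windows. That of Sod2 is chr1:50050187-50050211 (minus strand), 35 bases before the start. A match describes these letters only, and its part in the values was not tested. In halothane 10 the log2 fold changes of the brightest probe sets were -0.10 for Gclm, 0.16 for Prdx1, 0.04 for Txnrd1 and -0.12 for Sod2. The other Gclm probe sets were at 0.66 (rc_AI233261_i_at) and -0.18 (S65555_at). None of these was called.

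Txnrd1 encodes the cytosolic thioredoxin reductase, a selenoprotein that uses NADPH to reduce thioredoxin. Its brighter probe set, rc_AA891286_at, read 330.1, 279 and 233 in halothane 5, 291, 318 and 329.8 in halothane 10, 300.2, 283 and 347 in isoflurane 5, and 346, 375 and 399 in isoflurane 10, against 223 to 393 (median 312) in control. The isoflurane 10 arrays lay in the upper part of the control range, and 1 of 3 was above it. The log2 fold change there was 0.29 ± 0.12 (95% interval 0.04 to 0.55, adjusted p = 0.485), and between -0.13 and 0.04 in the other groups. U63923_at gave 0.07 ± 0.14 in isoflurane 10, and the correlation of the 2 Txnrd1 probe sets over the 24 arrays was -0.18.

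The number of exposures was compared within each agent, and no member was called. With 10 against 5 halothane exposures 0 members were called, beside 0.0135% of all probe sets, and 2 passed an unadjusted p under 0.05, 10.5% of the members beside 3.76% of all. These were Gclm rc_AI233261_i_at, 0.61 ± 0.18 higher in halothane 10 (adjusted p = 0.893), and Gpx1 X07365_s_at, 0.47 ± 0.20 higher in halothane 10 (adjusted p = 1). All 3 halothane 10 arrays lay above all 3 halothane 5 arrays with both probe sets and with Gpx1 X12367cds_s_at, and below them with Cat rc_AA926149_at. Over all probe sets, 3.1% lay wholly above and 5.32% wholly below in this comparison of 3 arrays with 3. With 10 against 5 isoflurane exposures 0 members were called, beside 0% of all probe sets, and 1 passed the unadjusted threshold, Gclm rc_AI233261_i_at at 0.39 ± 0.18 (adjusted p = 1), beside 3% of all. These comparisons use the same exposed arrays as those against control.

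Halothane and isoflurane were compared at the same number of exposures, 2 pairs in all, at the concentrations of 0.8% and 1%, which differ. At 5 exposures 0 of the 19 members were called, beside 0.0135% of all probe sets, and 0 passed an unadjusted p under 0.05, beside 2.98%. The member with the lowest p was Sod2, at 0.42 ± 0.22 (halothane minus isoflurane; 95% interval -0.04 to 0.89, adjusted p = 1), and Prdx6 Y17295cds_s_at, with its low halothane array, was at -0.46 ± 0.29 (-1.05 to 0.13) and, without that array, at 0.08. At 10 exposures 0 were called, beside 0% of all, and 1 passed the unadjusted threshold, beside 3.11%. This was Gpx1 X07365_s_at, at 661, 503 and 528 in halothane 10 and 473, 296 and 285 in isoflurane 10. All halothane arrays lay above all isoflurane arrays with this probe set and below them with Txnrd1 rc_AA891286_at, where 2.58% of all probe sets lay wholly above and 3.65% wholly below. The difference was 0.71 ± 0.20 (95% interval 0.30 to 1.13, adjusted p = 1) and ran from 0.58 to 0.95 with single arrays left out. With X12367cds_s_at it was 0.16 ± 0.11 (-0.06 to 0.39). For Gclm rc_AI233261_i_at the agents differed by 0.17 ± 0.18 (-0.20 to 0.54) at 10 exposures, an interval that does not show that they act alike.

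The genes around these enzymes were read from 9 lists (other scavengers, thioredoxins, glutathione metabolism, glutathione transferases, Nrf2 targets, NADPH supply, metal binding, other selenoproteins and sources of superoxide and peroxide), of which 77 genes were measured. None of the 77 was called in any of the 9 comparisons. At an unadjusted p under 0.05 there were 3 in halothane 5, 11 in halothane 10, 3 in isoflurane 5 and 10 in isoflurane 10, or 3.9%, 14.3%, 3.9% and 13%, beside 3.53%, 7.52%, 2.14% and 9.05% of all probe sets. The 5 genes with the lowest p are named for each 10-exposure group, Nfe2l2 (above) among them in both. Mafk encodes a small Maf protein that pairs with Nrf2 on DNA. In halothane 10 it averaged 131 against 168 in control (log2 fold change -0.35 ± 0.12, adjusted p = 0.472), with all 3 arrays below every control. Mafk was similar in halothane 5, at 133 (-0.34 ± 0.12), with 2 of 3 arrays below every control. It was at 0.03 in isoflurane 5 and 0.06 in isoflurane 10. Gpx3, the secreted glutathione peroxidase, averaged 198 in halothane 10 against 267 in control (-0.42 ± 0.15, adjusted p = 0.482). Of the glutathione transferase genes, Gsta3 averaged 15.1 against 34.2 in control (-0.85 ± 0.33, adjusted p = 0.534), with 1 of 3 halothane 10 arrays above the floor, and Gstm5 averaged 453 against 365 in control (0.31 ± 0.13, adjusted p = 0.588). In isoflurane 10, Ptgs1, which encodes a cyclooxygenase, averaged 29.7 against 59.5 in control (-1.04 ± 0.28, adjusted p = 0.291), and the microsomal transferase gene Mgst2 averaged 248 against 342 in control (-0.45 ± 0.14, adjusted p = 0.338). Sephs2, needed to make selenocysteine, averaged 134 against 101 in control (0.42 ± 0.14, adjusted p = 0.371), and Ggt5, which encodes a gamma-glutamyltransferase, averaged 56.9 against 82.2 in control (-0.70 ± 0.25, adjusted p = 0.382).

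Marker transcripts of the choroid plexus, whose epithelium lies in the ventricles, were unequal between arrays. Of 9 listed genes, 6 were measured (Ttr, Enpp2, Igfbp2, Sostdc1, Kl and Aqp1). Their summed signal was 2346 to 4529 in halothane 5, 4685 to 7204 in halothane 10, 4701 to 6875 in isoflurane 5 and 4816 to 6033 in isoflurane 10, against 3454 to 5316 in control. Ttr, at a mean of 3250 in control, made up most of the sum. The 6 genes did not all move alike. In isoflurane 10 the log2 fold changes were 0.41 for Ttr, 0.34 for Enpp2, 0.47 for Sostdc1 and 0.29 for Aqp1. Those of Kl and Igfbp2 were -0.57 and -0.10. By the filter, none of the 6 could be at 0. The part of choroid plexus in the Gclm and Nfe2l2 values of the 10-exposure groups was not tested.

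Probe sets of 1 gene mostly did not move together. Over the 24 arrays, which share their groups and spike-in level, the 14 pairs of same-gene probe sets had correlations from -0.18 to 0.85 with a median of 0.19. The highest, between Prdx6 AF014009_at and Y17295cds_s_at, was 0.50 without halothane 5 replicate 1. The next, 0.67, was between Cat M11670_at and rc_AA926149_g_at. The lowest correlation between different genes, -0.74, was between Sod1 Y00404_s_at and Cat rc_AA926149_g_at, both of which differed with the spike-in level.

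Genes with the most similar profiles were found for each member's brightest probe set by Pearson correlation of log2 signal over the 24 arrays, as a description. Gpx1 was most like the ribosomal protein genes Rpl24 (0.84) and Rpl23 (0.79), and Prdx1 most like Rpl18 (0.84) and Bex3 (0.82). Cat was most like Mgat2 (0.92) and Canx (0.91), and Sod1 most like F2rl1 (0.88) and Notch1 (0.81). For Txnrd1 these were Ezr (0.82) and Atp5pf (0.77), for Prdx6 Hsp90ab1 (0.77) and Mpp2 (0.74), and for Sod2 Psmb4 and Cyb5a (0.76 each). Gclm S65555_g_at was most like Cd14 (0.78) and Kynu (0.70). Gclc had the weakest best matches, Gdi2 and Vhl (0.66 each).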

How the data were processed

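The authors deposited 1 linear signal intensity per probe set and array, all columns with a 2% trimmed mean of 150.1 to 150.2; the summarising software, detection calls and genome build are not given in the sources used here. Per the labels, samples were grouped by agent and number of exposures. Intensities under 16.5, the 25th percentile of the table, were set to it and log2 was taken. This understates changes of dim genes and also narrows their spread. Probe sets had to exceed the floor on 3 or more arrays, and the 59 control sets were not tested. limma 3.58.1 (R 4.3.3) was fitted to all 24 arrays with 5 group means and an intensity trend, with no block. Benjamini-Hochberg adjustment covered all 7389 probe sets, and each SE and 95% interval comes from this fit. The script was tested on simulated data. The number of arrays limits the precision.

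The members and lists were chosen with earlier results of these data known. All member probe sets are named; from other lists, genes with the lowest p of their list (the rule allowed up to 4 a list; the report gives the 5 lowest over the lists, a number chosen after their values were seen); for likeness, the 2 nearest genes. Gene symbols come from the platform annotation and promoters from RefSeq. Alternatives were 2 other normalizations, 2 other floors, 2 other filters, no trend, array weights, other sample sets, the spike-in level, the replicate number as a block, and each array left out.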

Additional observations from a re-analysis of the deposited data

How the results depend on the processing

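The count of called members was 0 in all 9 comparisons and stayed 0 in the other settings, except in halothane 10 against control. There it was 1 (Gclm rc_AI233261_i_at) after quantile normalization, 1 after median centring and 1 with array weights, and the calls among all probe sets were 6, 6 and 33 in these settings, against 3. The cause was not tested. With each array left out in turn the count was 0 to 0. No called value reversed. Of the uncalled member values against control, signs differed from the reported ones in 18 of 258 (halothane 5), 20 of 258 (halothane 10), 19 of 258 (isoflurane 5) and 19 of 258 (isoflurane 10) across the settings other than leaving out an array. Gclm rc_AI233261_i_at was not kept with the floor at the 40th percentile or with the strict filter, and the fit on only the groups of a comparison gives no separate value for the pooled arrays.

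The labels do not say whether replicate numbers pair the samples. Of 30 pairs with the same number, 20 had correlated deviations over 0.1 (range -0.184 to 0.52). The median was 0.195 for these pairs, beside -0.108 for pairs with different numbers. Deviations within an exposed group of 3 arrays sum to 0. The latter median therefore follows largely from the former and is no independent baseline. In this check 12 of 15 arrays correlated best with their own number. That is at most a hint of pairing, from the data and not from the stated design, and the main fit does not use it. Replicate number also ran with the spike-in level. Replicate 3 of every exposed group and control replicate 3 had the high level, and replicates 1 and 2 of every exposed group the low level. The part of the spike-in level in these correlations was not tested. With the replicate number as a block, 0 members were called in any comparison. Over all probe sets, 15 were called in halothane 10 and 27 with the exposed arrays pooled, against 3 and 0 in the main fit. Numbers 4 to 12 occur only in control, so the blocked fit compares the exposed arrays with controls 1 to 3 alone. The control set thus differs as well as the block.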
